A study of Homo sapiens with 10 samples.

Results

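The genes described here are the collagens and the main glycoproteins and proteoglycans of the interstitial matrix, as read by Affymetrix arrays in HuCCT1, an established human cholangiocarcinoma cell line. They were picked by a rule on symbols alone, but the rule was set with earlier results of these data known. A probe set counted where it carried exactly 1 gene symbol, and that symbol was COL, digits, A, digits, or 1 of FN1, TNC, POSTN, SPARC, LUM, DCN, BGN, THBS1, THBS2 and VCAN. This gave 53 genes, 43 collagens and 10 others, read by 153 probe sets, out of 19775 genes on the array. Each gene was represented by its brightest probe set over all arrays, and its other probe sets are given beside it where they matter.

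The groups were 5 arrays of HuCCT1 cells transfected with an empty vector and 5 of HuCCT1 cells transfected with a vector labelled YAPS94A, all kept in RPMI-1640 with serum. The labels and the title give the substitution S94A in YAP1, whereas the design text gives S127A and calls the protein constitutively active, so the group is named here by its label. YAP1 is a transcriptional coactivator of the Hippo pathway that works mainly through TEAD factors. S94A is known to weaken its binding to TEAD, and S127A removes a site of inhibitory phosphorylation. Whether arrays 1 to 5 of a group stand for separate cultures or clones is not said, so every p-value below reflects array-to-array spread that may be technical. The comparison asks how the matrix genes differed between the vectors.

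Collagens are trimers of chains that each have their own gene. The fibrillar collagens bear tension in connective tissue, collagen IV builds the sheets of basement membranes, and collagen VI forms beaded microfilaments beside them. Fibronectin, tenascin-C, periostin and the thrombospondins bind collagen, growth factors and integrins, while lumican, decorin, biglycan and versican are proteoglycans that sit on fibrils or fill the space between them. In bile duct cancer most interstitial matrix is made by fibroblasts of the stroma, and a cell line grown alone shows only what the tumour cells transcribe.

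The genes of collagen IV lie in head-to-head pairs that are transcribed away from a shared stretch of DNA. These stretches are shown because both genes of each pair moved the same way in these cells. The upstream stretches of POSTN and VCAN follow, as the member with the largest fall and the member with 5 probe sets that all rose. The sequences are RefSeq's for GRCh38.p14, given 5′ to 3′ on the strand of the gene named last in each line. They end at the base before that gene's start and hold no base of an annotated gene. Capitals mark every match, on either strand, to the TEAD motif GGAATG, the AP-1 motif TGANTCA, the TATA box TATAAA, the CCAAT box or the GC box GGGCGG, and no matches overlapped.
COL4A4 and COL4A3, chr2:227164489-227164623, plus strand: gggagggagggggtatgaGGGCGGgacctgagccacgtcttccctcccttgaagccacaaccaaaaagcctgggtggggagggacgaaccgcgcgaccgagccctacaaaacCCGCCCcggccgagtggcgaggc
COL4A1 and COL4A2, chr13:110307158-110307283, plus strand: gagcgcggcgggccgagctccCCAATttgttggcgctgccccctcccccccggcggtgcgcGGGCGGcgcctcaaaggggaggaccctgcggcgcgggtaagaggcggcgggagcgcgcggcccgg
COL4A6 and COL4A5, chrX:108439588-108439837, plus strand: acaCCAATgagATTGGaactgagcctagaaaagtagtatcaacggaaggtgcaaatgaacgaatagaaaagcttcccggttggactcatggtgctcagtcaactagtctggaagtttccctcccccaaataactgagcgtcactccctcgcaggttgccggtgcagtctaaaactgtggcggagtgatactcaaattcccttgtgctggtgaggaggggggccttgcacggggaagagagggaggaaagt
POSTN, chr13:37598769-37599018, minus strand: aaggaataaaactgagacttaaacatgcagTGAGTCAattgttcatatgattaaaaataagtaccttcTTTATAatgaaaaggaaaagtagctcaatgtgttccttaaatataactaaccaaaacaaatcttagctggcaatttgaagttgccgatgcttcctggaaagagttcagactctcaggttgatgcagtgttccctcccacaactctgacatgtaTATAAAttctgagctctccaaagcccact
VCAN, chr5:83471494-83471743, plus strand: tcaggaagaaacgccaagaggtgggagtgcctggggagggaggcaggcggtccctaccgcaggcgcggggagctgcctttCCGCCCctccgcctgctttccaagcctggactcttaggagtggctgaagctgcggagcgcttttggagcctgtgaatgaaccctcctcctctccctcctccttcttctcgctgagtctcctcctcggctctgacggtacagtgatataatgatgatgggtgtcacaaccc

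The first and second lines are the whole stretch between the annotated genes, 135 and 126 bases, and the third is the 250 bases nearest to COL4A5 out of 379. The stretch between COL4A4 and COL4A3 held 2 GC boxes, which 35.6% of all promoters of that length hold at least once. The stretch between COL4A1 and COL4A2 held 1 CCAAT and 1 GC box, present in 21.9% and 34.6% of promoters of its length. The COL4A5 side held 2 copies of CCAAT, which 33.0% of all promoters hold at least once. POSTN had TATAAA 24 to 29 bases before its start and again 177 to 182 bases before it. At least 1 TATAAA is held by 11.1% of promoters. An AP-1 match lay 214 to 220 bases before the POSTN start (6.6%). VCAN had 1 GC box, found in 42.3% of promoters. None of the 5 stretches held GGAATG, a 6-letter match that 11.9% of all promoters of 250 bases hold, and 4 of the 39 members with a promoter in the table held it (10.3%).

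Of the 53 matrix genes, 21 passed the test between the vectors (39.6%), beside 36.3% of all genes. This share is close to the background. The test was limma across all 19775 genes with Benjamini-Hochberg adjustment, and a gene passed at an adjusted p under 0.05. With the YAPS94A vector 8 members rose (15.1%, beside 18.6% of all genes) and 13 fell (24.5%, beside 17.6%). The median difference over the members was 0.00 on the log2 scale, as it was over all genes. Differences here are always YAPS94A minus empty vector in log2 signal, where 1 is 2-fold. At least 2-fold changes were seen in 9 of the 53 (17.0%), beside 3.27% of all genes, 4 of them higher (2.03% of all genes) and 5 lower (1.24%). The groups did not overlap for 17 members (32.1%), beside 29.1% of all genes. COL4A3 is in the 9, the 4 and the 17 through a probe set that was brightest only because of the YAPS94A arrays. Its probe set brightest with empty vector differed by 0.26, with overlapping groups. The other 32 members did not pass, and their differences lay between -0.23 and 0.14. Both means lay below 4.73, the lower quartile of all signals, for 11 members, of which COL15A1 and COL21A1 passed. Levels of different probe sets do not give the order of transcript levels, so the differences below set each probe set against itself, and a level is used only to say how bright a probe set was.

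**Figure D1:**
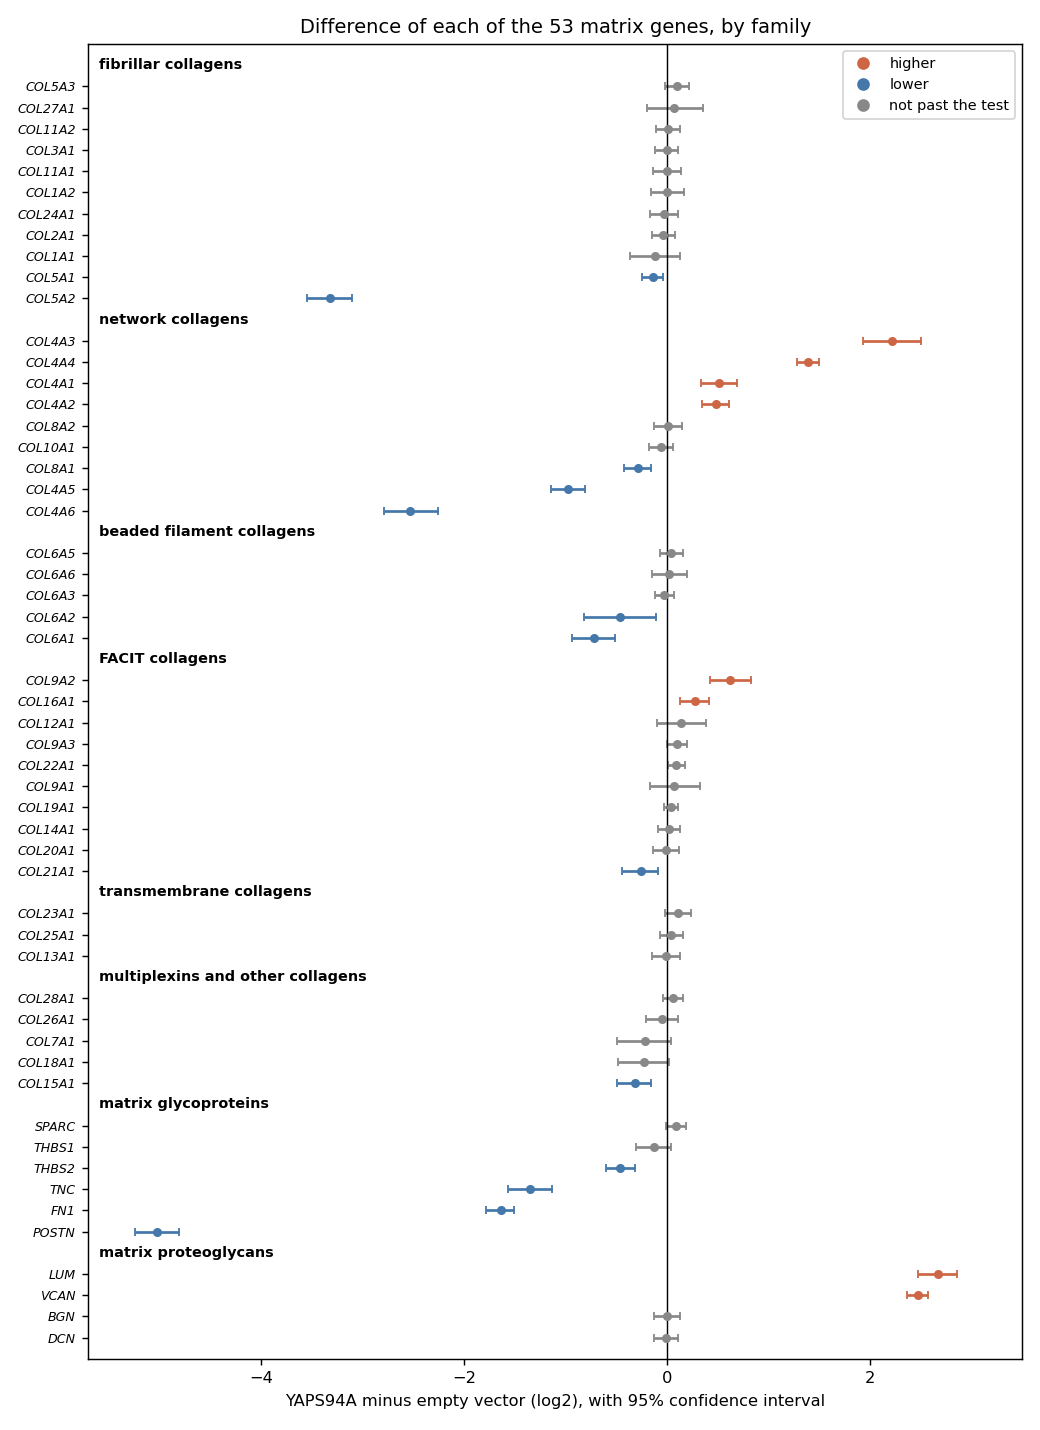
Difference of each of the 53 matrix genes between the vectors (x axis, log2, YAPS94A minus empty vector), by family, with 95% confidence intervals from limma. Orange genes rose, blue genes fell and grey genes did not pass, and POSTN at -5.02 and LUM at 2.67 mark the ends.

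Markers of duct epithelium were bright in both groups. Of 9 measured markers of biliary epithelium, KRT7, KRT19, KRT8, KRT18, EPCAM, SOX9, CDH1, CLDN4 and ANXA4, 7 rose, by 0.13 to 0.71, and the list's mean log2 signal was 12.73 to 12.79 over the empty vector arrays and 12.95 to 13.02 over the YAPS94A arrays. Of 12 fibroblast markers 2 rose, ACTA2 (2.21 ± 0.077, SE) and CFD (0.46 ± 0.055), and 2 fell, PDGFRA (-0.43 ± 0.046) and RGS5 (-0.34 ± 0.087). Their mean log2 signal was 6.49 to 6.53 and 6.61 to 6.69. Levels differed within this list. PDGFRA and PDGFRB read 5.99 and 5.43 with empty vector and 5.56 and 5.32 with YAPS94A. Brighter members were S100A4 (9.87 and 9.83), TAGLN (7.99 and 7.93), CFD (7.83 and 8.29) and RGS5 (7.31 and 6.96), and ACTA2 went from 5.89 to 8.11. The endothelial list (8 measured) had mean log2 signals of 5.29 to 5.40 and 5.29 to 5.43. In it ESAM rose from 8.38 to 8.81 and CLDN5 fell from 5.22 to 5.05. The leukocyte list (8 measured) had mean log2 signals of 5.37 to 5.43 and 5.20 to 5.26, and its 1 fall was LYZ, from 6.90 to 5.42. The part of other cells in the matrix differences was not tested. In RNA from a whole culture, fewer cells making a transcript and less of it per cell cannot be told apart. RNA integrity, read as the 3′ minus 5′ log2 signal of the GAPDH and ACTB control probe sets, ranged from 0.48 to 0.85 with empty vector and from 0.44 to 0.82 with YAPS94A, so the ranges overlapped.

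The matrix glycoproteins carried the largest fall. Of 6 measured, 4 fell, POSTN, FN1, TNC and THBS2, and none rose, with a median difference of -0.90. Here and for the other families and lists, 18.6% of all genes rose and 17.6% fell. POSTN encodes periostin, a matricellular protein that binds integrins and promotes collagen cross-linking. On the empty vector arrays 1 to 5 POSTN read 8.96, 9.02, 9.23, 9.38 and 9.29, and on the YAPS94A arrays 4.05, 4.45, 4.07, 4.12 and 4.06. All YAPS94A arrays lay far below all empty vector arrays, and 4 of them lay within 0.07 of each other. The mean went from 9.17 ± 0.18 to 4.15 ± 0.17 (SD, n = 5 each), a difference of -5.02 ± 0.097 (SE, limma adjusted p = 6.38e-12). The YAPS94A mean lies below 4.73, the lower quartile of all signals. A dimmer probe set fell by 1.99 ± 0.095, from 5.86 to 3.87, and the other probe sets of POSTN read below 4 in both groups. The mean of its 4 probe sets fell by 1.77.

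FN1 encodes fibronectin, the glycoprotein that cells assemble into fibrils through integrin α5β1. It read 12.17, 12.01, 12.15, 11.97 and 11.91 on the empty vector arrays and 10.45, 10.52, 10.35, 10.31 and 10.37 on the YAPS94A arrays. The groups were well apart. The difference was -1.64 ± 0.061 (SE, n = 5 each, limma adjusted p = 1.51e-09), a 3.12-fold fall. Of its 7 probe sets 5 passed as lower, 4 of them bright and close together (-1.64 to -1.72). The fifth fell by 0.39 from 6.03. The brightest carries the suffix _x_at, which marks possible cross-hybridisation, and the _s_at probe set among the 4, whose probes may read more than 1 transcript, fell by 1.68 ± 0.070. Without _x_at and _s_at probe sets only dim ones are left, and the difference was -0.311, with overlapping groups. Its limma adjusted p was 0.0468 over genes and 0.0572 over all probe sets, where it did not pass. The mean of all 7 probe sets fell by 1.08.

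TNC encodes tenascin-C, a large glycoprotein of healing tissue and tumour stroma. It read 7.32, 7.54, 7.38, 7.15 and 7.03 with empty vector and 5.89, 5.99, 6.18, 5.79 and 5.82 with YAPS94A. All YAPS94A arrays were lower. The difference was -1.35 ± 0.099 (SE, adjusted p = 5.68e-07), while its 2 dimmer probe sets, below 5 in both groups, did not pass. The mean of its 3 probe sets fell by 0.452. THBS2, the gene of thrombospondin-2, fell by 0.46 ± 0.064 (adjusted p = 0.000125) on its only probe set. The 30 nearest genes above the median level on its chromosome had a median difference of -0.29, and relative to them THBS2 was at -0.17 (limma adjusted p = 0.046). Here and below the neighbour median was subtracted as a fixed value, so such a p-value leaves out the spread of the neighbours.

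THBS1 encodes thrombospondin-1, an activator of latent TGF-beta and a known YAP1-responsive gene in several cell types. Its brightest probe set read 13.16, 13.02, 13.05, 12.87 and 12.81 with empty vector and 12.98, 13.01, 12.71, 12.82 and 12.72 with YAPS94A. These ranges overlapped, and the difference of -0.13 (95% interval -0.31 to 0.04) did not pass. Of the other 6 probe sets 5 passed as lower, tested over all probe sets (28.6% of which passed). Another probe set went from 12.97 ± 0.045 to 12.55 ± 0.025 (SD, n = 5) with no overlap, a difference of -0.42 ± 0.036 (adjusted p = 3.06e-06). The largest fall among them was 1.12 ± 0.058, from 10.70. The mean of all 7 fell by 0.482 (adjusted p = 9.52e-07). The call for THBS1 thus depended on the probe set read.

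SPARC, the gene of osteonectin, a collagen-binding glycoprotein, stayed low. It read 5.25, 5.30, 5.35, 5.35 and 5.43 with empty vector and 5.43, 5.52, 5.45, 5.39 and 5.33 with YAPS94A. The groups overlapped, with a difference of 0.09 (95% interval -0.01 to 0.19). The neighbours of SPARC had a median of 0.23, and relative to them it was at -0.142 (adjusted p = 0.0264).

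**Figure D2:**
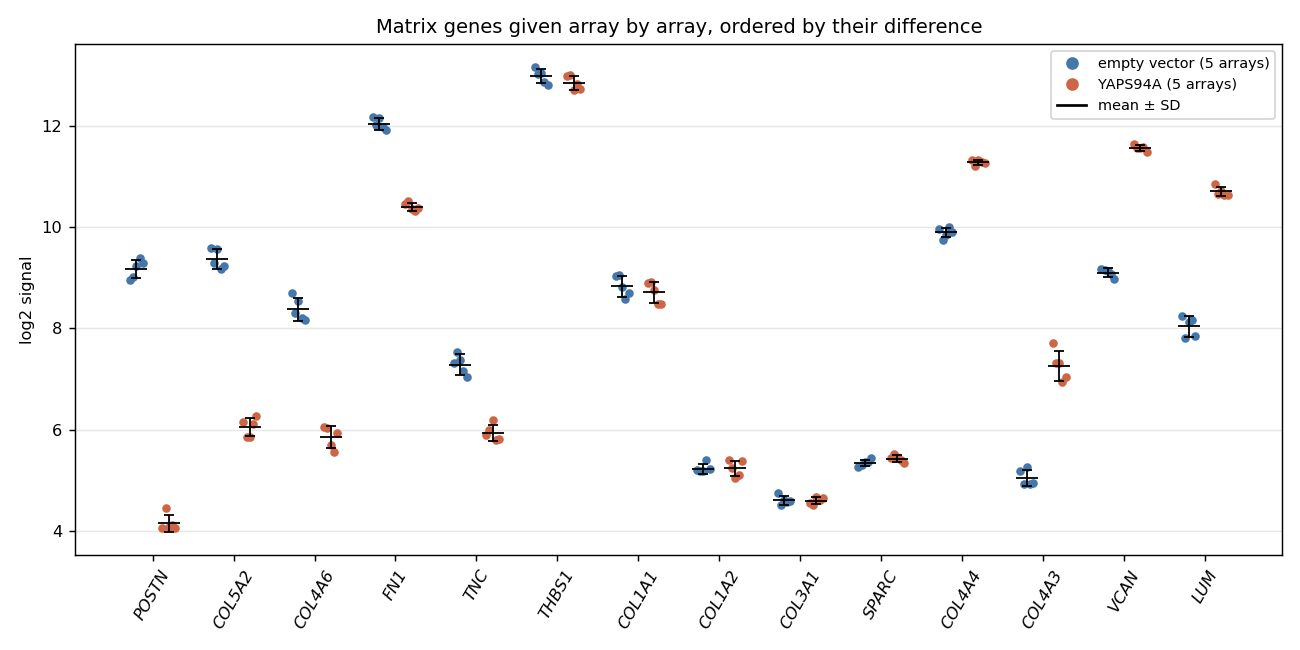
Log2 signal (y axis) of 14 matrix genes on each array, empty vector in blue and YAPS94A in orange, with mean ± SD of 5 arrays, ordered by difference from POSTN to LUM. The groups do not overlap for 9 genes and overlap for THBS1, COL1A1, COL1A2, COL3A1 and SPARC. COL4A3, among the 9, is shown by a probe set that was brightest only through the YAPS94A arrays.

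Among the proteoglycans LUM and VCAN rose, while BGN and DCN did not pass. LUM encodes lumican, a small leucine-rich proteoglycan that spaces collagen fibrils. It read 8.25, 7.81, 8.12, 8.16 and 7.84 with empty vector and 10.86, 10.66, 10.72, 10.64 and 10.64 with YAPS94A. Every YAPS94A array was more than 2 units above every empty vector array. The difference was 2.67 ± 0.088 (SE, limma adjusted p = 5.6e-10), a 6.34-fold rise, the largest among the members. A second probe set with signals below the lower quartile rose by 0.49 ± 0.097 from 3.84, and the mean of both by 1.58.

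VCAN encodes versican, a large chondroitin sulfate proteoglycan that binds hyaluronan. It read 9.17, 9.16, 9.13, 9.08 and 8.97 with empty vector and 11.64, 11.56, 11.57, 11.59 and 11.48 with YAPS94A. The groups lay well apart and the spread within each was small. The difference was 2.47 ± 0.047 (SE, limma adjusted p = 6.03e-12), a 5.53-fold rise. All 5 probe sets of VCAN rose, by 2.47 to 2.80. DCN, the gene of decorin, differed by -0.01 ± 0.055 and BGN, the gene of biglycan, by 0.00 ± 0.060 (SE). None of the 7 probe sets of DCN or the 3 of BGN passed.

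The chain genes of collagen IV moved in both directions. The network collagens, which are its 6 chain genes with COL8A1, COL8A2 and COL10A1, had 4 members higher and 3 lower out of 9. In tissue the α1 and α2 chains form the common trimer of basement membranes, α3, α4 and α5 form another, and α5 also joins with α6. The genes of α1, α2 and α4 rose and those of α5 and α6 fell, while the size of the rise for α3 depended on the probe set. The genes of the α4 and α5 chains, which share a trimer, thus moved in opposite directions. The chains themselves were not measured.

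COL4A3 read 5.18, 4.93, 5.26, 4.93 and 4.94 with empty vector and 7.70, 7.32, 7.32, 6.94 and 7.03 with YAPS94A. All YAPS94A arrays were higher, with a wider spread than the empty vector arrays. The mean went from 5.05 ± 0.16 to 7.26 ± 0.30 (SD, n = 5 each), a rise of 2.22 ± 0.13 (SE). This probe set was the brightest over all 10 arrays only through the YAPS94A arrays, so its choice depended on the rise and the size is given as a description. The probe set brightest with empty vector went from 5.29 to 5.56, a difference of 0.26, with a limma adjusted p of 0.0455 over genes and 0.0575 over all probe sets. COL4A3 was the 1 member whose probe set changed when chosen with empty vector alone. Of its 7 probe sets 5 passed as higher, but the others of these rose by 0.18 to 0.45 and were dim. The mean of all of them rose by 0.537.

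COL4A4, its head-to-head partner, read 9.96, 9.75, 9.85, 10.00 and 9.91 with empty vector and 11.33, 11.20, 11.32, 11.28 and 11.27 with YAPS94A. The groups were apart by more than 1 unit. The rise was 1.39 ± 0.050 (SE, adjusted p = 1.17e-09), and the other probe sets of COL4A4 rose by 1.47 ± 0.086 and 0.42 ± 0.081. The 30 nearest genes above the median level had a median difference of -0.11.

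COL4A6 read 8.70, 8.30, 8.53, 8.21 and 8.16 with empty vector and 6.04, 6.03, 5.70, 5.55 and 5.94 with YAPS94A. No YAPS94A array came near the empty vector arrays. It fell by 2.53 ± 0.12 (SE, adjusted p = 1.35e-08), a 5.76-fold fall, and its other probe sets went from 6.54 to 5.04 and from 4.83 to 4.36, both lower.

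COL4A5, which lies head to head with COL4A6 on the X chromosome, read 10.05, 9.98, 10.07, 10.26 and 10.09 with empty vector and 9.23, 8.95, 9.33, 9.05 and 9.02 with YAPS94A. It fell by 0.98 ± 0.076 (SE, adjusted p = 9.53e-07), a 1.97-fold fall, and its dimmer probe set by 0.47 ± 0.11. The groups did not overlap, and the 30 nearest genes had a median of -0.06.

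The COL4A1 and COL4A2 pair rose by less. COL4A1 read 5.88, 5.82, 5.72, 5.64 and 5.42 with empty vector and 6.37, 6.21, 6.13, 6.20 and 6.10 with YAPS94A. COL4A2 read 7.30, 7.26, 7.03, 7.10 and 7.01 with empty vector and 7.59, 7.72, 7.61, 7.63 and 7.54 with YAPS94A. Neither gene's groups overlapped. The rises were nearly equal, 0.51 ± 0.083 and 0.48 ± 0.063 (SE, adjusted p = 0.000411 and 7.85e-05), with a neighbour median of 0.01. The second probe set of each did not pass, at 0.08 ± 0.069 and 0.13 ± 0.068. In the mean of both probe sets the rises were 0.294 and 0.300.

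**Figure D3:**
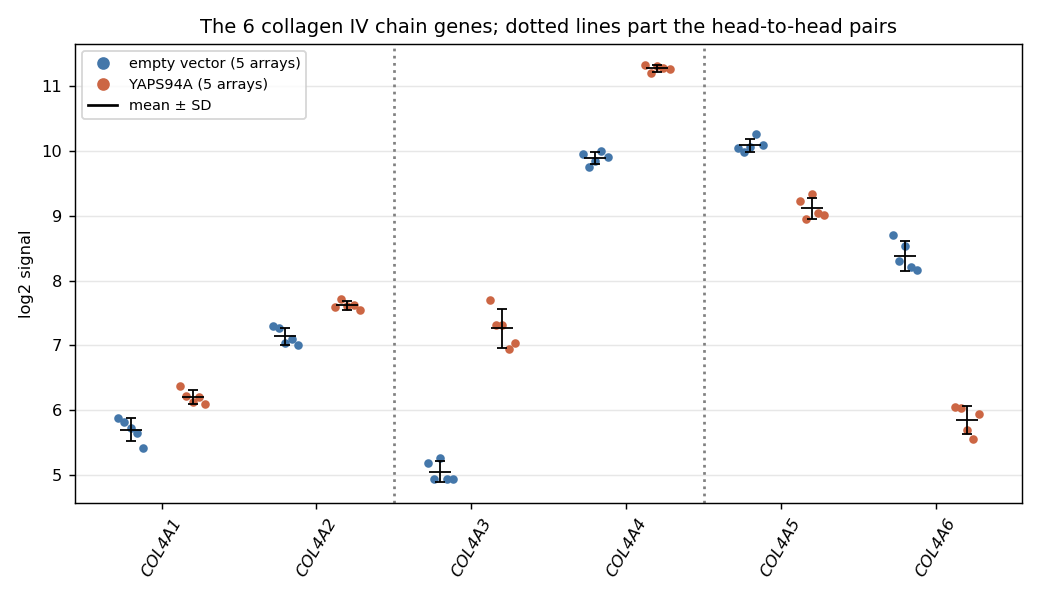
Log2 signal (y axis) of the 6 collagen IV chain genes on each array, empty vector in blue and YAPS94A in orange, with mean ± SD of 5 arrays and dotted lines between head-to-head pairs. Both genes of a pair moved the same way, up for COL4A1 with COL4A2 and for COL4A3 with COL4A4, and down for COL4A5 with COL4A6. The probe set of COL4A3 was brightest only through the YAPS94A arrays, so the size of its rise depends on that choice.

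The other network collagens moved little. COL8A1, a short-chain collagen of vessel and epithelial matrix, fell by 0.29 ± 0.059 (SE, adjusted p = 0.00209), from 12.28 ± 0.11 to 11.99 ± 0.084 (SD, n = 5), with no overlap. Of its other probe sets 1 fell by 0.77 ± 0.071 from 5.57 and 1 did not pass, at 0.03. The neighbours of COL8A1 had a median of -0.10, and relative to them it was at -0.189 (adjusted p = 0.0218). COL8A2 and COL10A1 did not pass, at 0.01 and -0.06. The neighbours of COL10A1 had a median of -0.55, lower than COL10A1 itself.

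Of 11 fibrillar collagens 2 fell and none rose. COL5A2 encodes the α2 chain of collagen V, which starts collagen I fibrils and limits their width. It read 9.59, 9.29, 9.56, 9.18 and 9.23 with empty vector and 6.15, 5.86, 5.85, 6.11 and 6.26 with YAPS94A. No YAPS94A array came near the empty vector arrays. The fall was 3.32 ± 0.10 (SE, limma adjusted p = 3.66e-10), and a second probe set, at 9.32 with empty vector, fell by 4.22 ± 0.11. COL5A1, whose chain pairs with it, fell by only 0.14 ± 0.048 (adjusted p = 0.0387). That call was lost in 10 of the alternatives, among them 7 of the 10 that leave out an array (adjusted p up to 0.0941), and no probe set of COL5A1 passed over all probe sets.

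The major fibrillar collagens did not pass. COL1A1 encodes the α1 chain of collagen I, and its brightest probe set read 9.03, 9.05, 8.82, 8.57 and 8.69 with empty vector and 8.89, 8.92, 8.76, 8.49 and 8.49 with YAPS94A. Each YAPS94A array was lower than the empty vector array of the same number, although the groups overlapped. The difference was -0.12 ± 0.11 (SE, adjusted p = 0.479, 95% interval -0.37 to 0.13). With array number blocked it was -0.12 ± 0.037 (limma adjusted p = 0.0296), and in the mean of its 5 probe sets -0.14 (adjusted p = 0.0227). COL1A1 did not pass in the other 21 of its 23 alternatives. With the RNA integrity measure as a covariate the difference was -0.0582 ± 0.0605 (SE, limma adjusted p = 0.493).

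COL1A2, the gene of the partner chain of collagen I, read 5.19, 5.17, 5.17, 5.40 and 5.21 with empty vector and 5.39, 5.24, 5.05, 5.10 and 5.37 with YAPS94A. COL3A1, the gene of the collagen of elastic tissues, read 4.74, 4.50, 4.61, 4.56 and 4.59 and then 4.54, 4.50, 4.67, 4.61 and 4.65. The groups overlapped for both genes, with differences of 0.00 (95% interval -0.16 to 0.17) and 0.00 (-0.12 to 0.11). A dim probe set of COL3A1 rose by 0.22 ± 0.048, from 3.44. The remaining fibrillar genes, COL2A1, COL5A3, COL11A1, COL11A2, COL24A1 and COL27A1, differed by -0.04 to 0.10 and did not pass.

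Of 5 collagen VI genes COL6A1 and COL6A2 fell and none rose. COL6A1 read 11.71, 11.60, 11.58, 11.36 and 11.40 with empty vector and 11.01, 10.99, 10.79, 10.74 and 10.52 with YAPS94A. All YAPS94A arrays were lower. The fall was 0.72 ± 0.098 (SE, limma adjusted p = 9.38e-05). Of its 8 probe sets 4 passed, all lower, and the mean of all 8 fell by 0.327. COL6A2 fell by 0.46 ± 0.16 (adjusted p = 0.0413) with overlapping groups, and lost the call in 9 alternatives, 7 of which left out an array. Its second probe set fell by 0.48 ± 0.089 with no overlap (adjusted p = 0.00133). COL6A3, the gene of a further common chain, read 3.98 and 3.95 and did not pass, as did COL6A5 and COL6A6.

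The FACIT collagens, which attach to fibril surfaces, had 2 members higher and 1 lower out of 10. COL9A2, a chain of collagen IX of cartilage, rose by 0.62 ± 0.095 (SE, adjusted p = 0.000238) without overlap, and by 0.36 in the mean of its 2 probe sets. COL16A1 rose by 0.27 ± 0.065 and COL21A1 fell by 0.26 ± 0.082, the latter with both means below the lower quartile. Both lost the call without the arrays numbered 1 and 2 (adjusted p = 0.0618 and 0.121), and COL21A1 also without YAPS94A array 2 (0.0535). COL12A1, the gene of collagen XII, differed by 0.14 ± 0.11 on its brightest probe set and did not pass, whereas its second rose from 8.50 to 9.30, by 0.80 ± 0.073 (adjusted p = 5.54e-06 over all probe sets). On that probe set the arrays read 8.37 to 8.66 with empty vector and 9.18 to 9.52 with YAPS94A, without overlap. COL9A3 differed by 0.10 and passed only once array number was blocked (limma adjusted p = 0.0451 against 0.114). COL9A1, COL14A1, COL19A1, COL20A1 and COL22A1 differed by -0.01 to 0.09 and did not pass.

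None of the 3 measured transmembrane collagens, COL13A1, COL23A1 and COL25A1, passed, at -0.01, 0.11 and 0.04. Of the remaining 5 collagens COL15A1, a multiplexin of basement membrane zones, fell by 0.32 ± 0.076 (SE, adjusted p = 0.00507), with means of 4.23 and 3.90 that both lie below the lower quartile. COL18A1, the source of endostatin, and COL7A1, which forms anchoring fibrils of epithelium, differed by -0.23 ± 0.11 and -0.22 ± 0.12 and did not pass. Both passed in the blocked fit (limma adjusted p = 0.0383 and 0.0303). COL26A1 and COL28A1 differed by -0.05 and 0.06.

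Probe sets of 1 gene often differed in the size of their difference. Of 44 members with more than 1 probe set, none had probe sets that passed in opposite directions, although those that did not pass lay on either side of 0. In 6 of them, VCAN, LUM, COL4A4, COL4A5, COL4A6 and COL5A2, every probe set passed the same way, and in 22 none passed. In 6 members, THBS1, COL12A1, COL1A1, COL3A1, COL25A1 and COL27A1, the brightest probe set did not pass but another did. The matching shares over all genes with more than 1 probe set are not given, so these counts have no background. Of all 153 member probe sets 21 were higher and 33 lower, together 35.3%, beside 28.6% of all probe sets on the array, a share not split by direction.

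**Figure D4:**
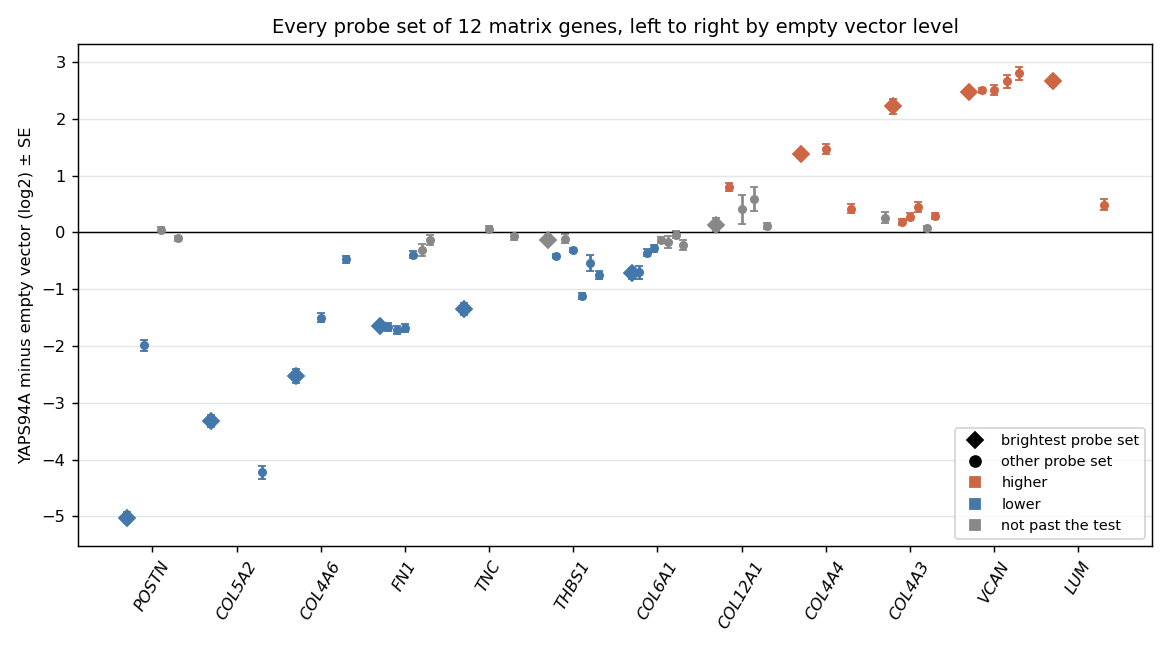
Difference between the vectors (y axis, log2, YAPS94A minus empty vector, ± SE) for every probe set of 12 matrix genes, left to right by level with empty vector. Diamonds mark the brightest probe set and grey points did not pass, and the 5 VCAN probe sets lie between 2.47 and 2.80 while those of THBS1 run from -0.11 to -1.12.

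The genes that fold, export, process, link, bind and degrade collagens are given next, each by its brightest probe set. In collagen folding and modification 4 of 17 rose and 2 fell, with a median of 0.05, where 18.6% of all genes rose and 17.6% fell. PLOD2, the lysyl hydroxylase of collagen telopeptides, fell by 0.42 ± 0.038 (SE), while its relative PLOD3 rose by 0.31 ± 0.068. FKBP10, a chaperone of procollagen, rose by 0.60 ± 0.11 and COLGALT1, a collagen galactosyltransferase, by 0.22 ± 0.050. COLGALT1 was only 0.03 above its neighbours, which had a median of 0.19. In collagen export 2 of 12 rose, the coat genes SEC13 (0.16 ± 0.034) and SEC23A (0.13 ± 0.046), with a median of 0.02. The neighbours of SEC13 had a median of 0.31, and relative to them it was at -0.15. In procollagen processing 3 of 10 rose and 1 fell, with a median of 0.05. PCOLCE2 and PCOLCE, enhancers of the C-proteinase, rose by 0.66 ± 0.071 and 0.25 ± 0.068, and the C-proteinase gene BMP1 by 0.26 ± 0.062. ADAMTS2, the N-proteinase gene, fell by 0.20 ± 0.065.

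Among genes of cross-linking and fibril assembly 1 of 14 rose and 4 fell, with a median of -0.05. The rise was FBLN1, the gene of fibulin-1, which binds fibronectin and versican, by 1.38 ± 0.057 (SE). CTHRC1, a secreted protein of matrix remodelling, fell by 0.94 ± 0.11, the transglutaminase gene TGM2 by 0.27 ± 0.045 and the lysyl oxidase gene LOX by 0.20 ± 0.035. The 14 genes listed as receptors of collagen and fibronectin also include CD36, CD44 and CD47, which bind other matrix molecules. Of these 14, 3 rose and 3 fell, with a median of -0.03. ITGA5, the α chain of the fibronectin receptor, fell by 0.67 ± 0.091 beside the fall of FN1. ITGA1, of a collagen receptor, rose by 0.45 ± 0.064, the thrombospondin receptor gene CD47 by 0.35 ± 0.048 and ITGAV by 0.26 ± 0.037.

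Of 16 genes of collagen turnover 3 rose and 4 fell, with a median of 0.00. The rises were CTSK, by 0.44, TIMP2, by 0.19, and PLAU, by 0.18. The falls were MMP10 (0.62 ± 0.072 lower), MMP1, the interstitial collagenase (0.35 ± 0.053 lower), MMP14, a membrane-bound collagenase (0.34 ± 0.051 lower), and MMP3 (0.27 ± 0.042 lower). MMP10, MMP1 and MMP3 had neighbour medians of 0.34, 0.36 and 0.34, and were at -0.96, -0.7 and -0.61 relative to them. The 13 genes listed for TGF-beta input to matrix genes also include its targets CCN2 and TGFBI. Of these 13, 2 rose and 4 fell, with a median of 0.03. The rises were the ligand gene TGFB1, by 0.25, and the target TGFBI, by 0.23. CCN2, a matricellular target of both TGF-beta and YAP1, fell by 1.48 ± 0.090, and it was at -1.15 relative to its neighbours, which had a median of -0.33. LTBP1, whose protein holds latent TGF-beta in the matrix, fell by 0.80 ± 0.066. LTBP2, of the same gene family, fell by 0.92 ± 0.16, and the receptor gene TGFBR1 by 0.31 ± 0.051. These are counts of single genes in the fit over all genes, and the lists themselves were not tested.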

How the data were processed

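The authors deposited log2 signals of 54675 probe sets on 10 arrays, with their summarisation and normalization not given in the sources used here. Per the labels' protocols, the targets were biotin-labelled cDNA from NuGEN Ovation amplification of total RNA. The values ran from 2.86 to 14.43 and array medians from 6.25 to 6.28, so they were used as deposited. Symbols came from the platform annotation, updated through RefSeq (GRCh38.p14), which held 41043 of the 41097 probe sets with 1 symbol. A total of 62 control probe sets were left out. limma 3.58.1 in R 4.3.3 (lmFit, eBayes, two-sided, no covariate, no filter) was run over 19775 genes, and over all probe sets for a gene's other probe sets. SEs come from these fits. The fit was tested on simulated data. An array carries no count of molecules, and the 5 arrays per vector limit the precision. The groups share the numbers 1 to 5. Same-numbered arrays deviated together (correlations 0.102 to 0.59 over the genes, above 0.1 in all 5 pairs), so blocked values stand where they change a call. This pairing comes from the data, not from a stated batch. The 3′ minus 5′ log2 signal also changed along the numbers. It went from 0.85 on array 1 to 0.48 on array 5 with empty vector. With YAPS94A it went from 0.68 to 0.44, with 0.82 on array 2. The part of RNA integrity in the blocked calls was not tested. Array values are printed for members that passed with at least a 2-fold change and for COL1A1, COL1A2, COL3A1, FN1, SPARC, THBS1 and TNC, and also for COL4A1, COL4A2, COL4A5 and COL6A1, chosen after their values were seen. Of the 7 pathway lists, the 4 members with the smallest p among those past the test are named. For collagen turnover and TGF-beta input the members that rose are named as well. The members and lists were chosen with earlier results of these data known. Of 53 members, 39 had a promoter in the RefSeq table.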

Additional observations from a re-analysis of the deposited data

Results flagged for a closer look

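Of 52 groups of 5 arrays, from the 26 members that passed or are named, 3 held an array far from the other 4, where chance flags about 5% of groups. YAPS94A array 2 read 4.45 for POSTN, and the other 4 lay between 4.05 and 4.12. Empty vector array 4 read 5.40 for COL1A2, and the other 4 lay between 5.17 and 5.21. YAPS94A array 1 read 4.08 for COL15A1, and the other 4 lay between 3.84 and 3.88. Without these arrays the differences were -5.10 for POSTN, 0.0457 for COL1A2 and -0.368 for COL15A1.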

How the results depend on the processing

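The counts of members that passed, 8 higher and 13 lower, stayed within 1.5 times under renormalization, other probe set choices, an intensity trend, array weights and subtraction of the neighbour median. With the replicate number as a block they were 9 and 16, and 8154 genes passed in place of 7172. That block brought COL1A1, COL7A1, COL18A1 and COL9A3 past the test and changed no other call of a member. Leaving out each array gave 8 members higher throughout, 11 to 13 lower and 6524 to 7206 genes. Among genes above the median level 3 members were higher and 6 lower, because fewer members are tested there. Over all probe sets 15643 passed, since more features are tested. SPARC changed sign to -0.142 relative to its neighbours. The differences of COL1A2 and COL3A1, which passed in none of their 22 alternatives, changed sign in 10 and 9 of them. Calls were lost for COL5A1 in 10 alternatives, COL6A2 in 9, COL21A1 in 2 and COL16A1 in 1. COL1A1 and THBS1, not past the test, passed in 2 alternatives each. The other 17 members that passed kept direction and call in every alternative that gave a value, but with other probe sets the difference shrank by over 1.5 times for 11 of them, to -1.77 for POSTN, 0.494 for LUM, -0.452 for TNC, -0.311 for FN1, 0.261 for COL4A3, -1.5 for COL4A6, -0.473 for COL4A5, -0.327 for COL6A1, 0.294 for COL4A1, 0.300 for COL4A2 and 0.36 for COL9A2. Added after the data were seen, the RNA quality covariate gave 8 higher and 14 lower, leaving out the arrays numbered 1 and 2 gave 7 and 11, and the probe set brightest with empty vector gave 8 and 13. Low signals limit falls, and no detection calls were used.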
